A study of Mus musculus with 6 samples.

Results

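The 34 genes described here are transcripts that mark microglia and other macrophages, measured by RNA sequencing in cultures of adult mouse neural stem cells. They were chosen by gene symbol from the count table, with the reads of the PluriSIn#2 libraries against those of the DMSO libraries in view, and they are 34 of its 24421 genes. The values that chose them are therefore given as a description and without a test. All 34 were found in the table, and 27 passed the filter on low counts that precedes the fit across all genes.

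The cells were primary neural stem cells of C57BL/6 mice at postnatal day 60, taken from the subventricular zone, the wall of the lateral ventricle where adult mice keep stem cells. The cells were wild type. All cultures received FGF2 and EGF at 20 ng/ml each. One group of 3 libraries came from cells given 20 µM PluriSIn#2, described by the submitters as an inhibitor of topoisomerase IIA, and the other group of 3 from cells given the vehicle DMSO, for 3 days in both groups, with the medium changed after 24 h. The labels do not state whether replicates were separate cultures, so a p-value here reflects the spread among 6 libraries and that spread may be technical. For treated replicates 2 and 3 the treatment label and the title disagree on the number in the compound's name. The 34 genes summed to 592 CPM (a gene's counts relative to the scaled total of its library) in treated replicate 1 and to 596 and 580 CPM in replicates 2 and 3, against 174 to 179 CPM in the DMSO libraries.

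Microglia are the resident macrophages of the brain. Macrophages depend on the receptor CSF1R for survival, and on the transcription factor PU.1, the product of Spi1, for their identity. Several of their surface receptors, TREM2 among them, have no signalling tail of their own and signal through small adaptors such as TYROBP, which carry an activation motif called ITAM. In the healthy brain microglia are known for high Cx3cr1, P2ry12, Tmem119, Siglech and Sall1, whereas macrophages elsewhere and microglia in disease are known for genes such as Gpnmb, Clec7a and Msr1.

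Libraries held 16670962 to 19241869 counts. Markers of neural stem cells were abundant in all 6 libraries, with Vim, Fabp7 and Slc1a3 at 2667, 1676 and 1936 CPM in DMSO and at 3059, 715 and 2705 CPM in PluriSIn#2, which are the 3 of 11 such markers with the highest mean CPM. Of the 11, 7 were called lower in PluriSIn#2 and 4 higher. The lower ones included Nes (1186 and 437 CPM), Egfr (520 and 210 CPM) and Sox2 (49.0 and 32.7 CPM). Sox9 (150 and 263 CPM) and Msi1 (77 and 124 CPM) were higher, as were Vim and Slc1a3. Nes, Egfr, Sox2, Sox9 and Msi1 are named after their values were seen. In a bulk library, more cells of a type and more of a transcript per cell cannot be told apart. The fit across all 14417 genes that passed the filter called 41.7% of them higher and 40.9% lower in PluriSIn#2 (82.6% in all), at an adjusted p under 0.05 in edgeR.

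The DNA just before the start of these genes is shown for 3 members that hold a PU.1 core and had at most 10 DMSO reads (Trem2, Cd53 and Mrc1) and for 3 that hold none, namely Cybb (18 DMSO reads), Lyz2 (69) and Sall1 (7893). Other holders of the core were Aif1, Clec7a and Ptprc (6 DMSO reads each), Fcgr1 (4), Fcgr3 (2), Laptm5 (14), Plek (88) and Cd68 (295). Other genes searched that lacked it were Fcgr2b (0), Siglech (1), Ly86 (2), Cx3cr1 (5), Lcp1 (25), Fcer1g (34), Irf8 (67) and P2ry12 (67). Cd163 (73), Tlr2 (102), Cyba (134), Mpeg1 (173) and Gpnmb (426) lacked it too. Whether the core goes with few DMSO reads was not tested. PU.1 is known to bind DNA with the core GAGGAA, and whether it acts on these genes was not tested. RefSeq starts on GRCm38.p6, the build also called mm10, were found for 27 of the 34 genes. The start used for Cybb, and so the window shown, lay inside the annotated gene (chromosome X, 9435252 to 9487771). Sequences run 5′ to 3′ in the direction of the gene, and capitals mark GAGGAA or, where the core lies on the other strand, its reverse complement TTCCTC.
Trem2, chr17:48346151-48346400, plus strand: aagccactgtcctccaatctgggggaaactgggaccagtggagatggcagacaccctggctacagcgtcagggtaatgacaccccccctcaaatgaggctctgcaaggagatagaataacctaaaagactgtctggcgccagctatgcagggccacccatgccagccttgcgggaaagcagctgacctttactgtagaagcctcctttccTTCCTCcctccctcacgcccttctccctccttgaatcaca
Cd53, chr3:106790150-106790399, minus strand: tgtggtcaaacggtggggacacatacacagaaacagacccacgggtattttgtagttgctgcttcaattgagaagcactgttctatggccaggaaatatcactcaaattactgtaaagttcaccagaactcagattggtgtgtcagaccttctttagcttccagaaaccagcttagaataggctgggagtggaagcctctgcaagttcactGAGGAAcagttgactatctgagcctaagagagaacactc
Mrc1, chr2:14229164-14229391, plus strand, ending where the annotated exon begins: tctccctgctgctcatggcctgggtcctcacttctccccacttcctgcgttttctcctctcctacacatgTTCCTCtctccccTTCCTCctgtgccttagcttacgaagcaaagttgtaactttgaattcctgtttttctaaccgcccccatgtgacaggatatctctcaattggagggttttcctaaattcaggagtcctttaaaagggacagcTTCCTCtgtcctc
Cybb, chrX:9469325-9469574, minus strand: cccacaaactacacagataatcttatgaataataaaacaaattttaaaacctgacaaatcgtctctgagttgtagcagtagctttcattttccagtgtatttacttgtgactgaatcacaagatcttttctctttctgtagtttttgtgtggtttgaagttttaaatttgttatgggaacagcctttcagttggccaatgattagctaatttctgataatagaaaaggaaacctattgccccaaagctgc
Lyz2, chr10:117282322-117282522, minus strand, ending where the annotated exon begins: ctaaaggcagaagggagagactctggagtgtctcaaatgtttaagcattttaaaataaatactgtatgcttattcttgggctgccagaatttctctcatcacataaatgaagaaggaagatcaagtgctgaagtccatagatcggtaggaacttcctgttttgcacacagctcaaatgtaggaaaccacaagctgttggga
Sall1, chr8:89044163-89044412, minus strand: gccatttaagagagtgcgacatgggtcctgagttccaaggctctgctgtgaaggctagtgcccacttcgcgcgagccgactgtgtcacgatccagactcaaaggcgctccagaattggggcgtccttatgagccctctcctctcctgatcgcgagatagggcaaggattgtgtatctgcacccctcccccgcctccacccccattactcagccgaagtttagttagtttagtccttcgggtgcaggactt

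In the 250 bases before a start, searched on both strands, 11 of the 27 genes held GAGGAA (40.7%), and 16 did not, against 25.9% of all 27025 genes with a RefSeq start. Within 100 bases of a start it was in 9 of the 27 (33.3%), against 11.2% of all genes. The match nearest to a start began 6 bases before it in Fcgr3, 7 in Aif1, 35 in Mrc1, 38 in Laptm5, 39 in Cd53 and 40 in Trem2. It began 55 bases before in Fcgr1, 61 in Plek, 90 in Clec7a, 158 in Ptprc and 225 in Cd68, and Mrc1 had 2 further matches, at 167 and 180 bases. In Aif1, Fcgr3, Laptm5, Plek and Ptprc the RefSeq start used, and so the nearest match, lay inside the span of the annotated gene. The longer form GAGGAAGT, which contains the core, was in none of the 27, against 2.79% of all genes. No match was found before the 3 listed starts of Sall1 or the starts of Cybb and Lyz2. These letters describe the windows and do not show a bound site.

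Most of these transcripts had few reads in DMSO and many more in PluriSIn#2. Of the 27 that passed the filter, 23 were called higher, 2 lower and 2 in neither direction, beside the 41.7% and 40.9% of all genes given above. The 3 treated values did not overlap the 3 DMSO values for the same 23 higher and 2 lower genes, where 41.8% of all tested genes were wholly higher and 40.9% wholly lower (82.7% together). Since this contrast chose the genes, nothing is read from these counts.

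The filter bears on the low members. Of the 34 genes 21 had at most 30 DMSO reads over the 3 libraries, and the 14 of them that passed did so through their treated reads, so that a difference was built in. Among all tested genes with so few DMSO reads, 88.9% were called higher. The other 13 genes, with over 30 DMSO reads, held 9 higher, 2 lower and 2 not called. The median log2 fold change was 4.49 over the 27 genes and 0.01 over all genes tested, and stayed at 4.49 with Trem2, which had no DMSO read, set at its bound. Without a filter, over all 34, it was 4.10.

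**Figure D1:**
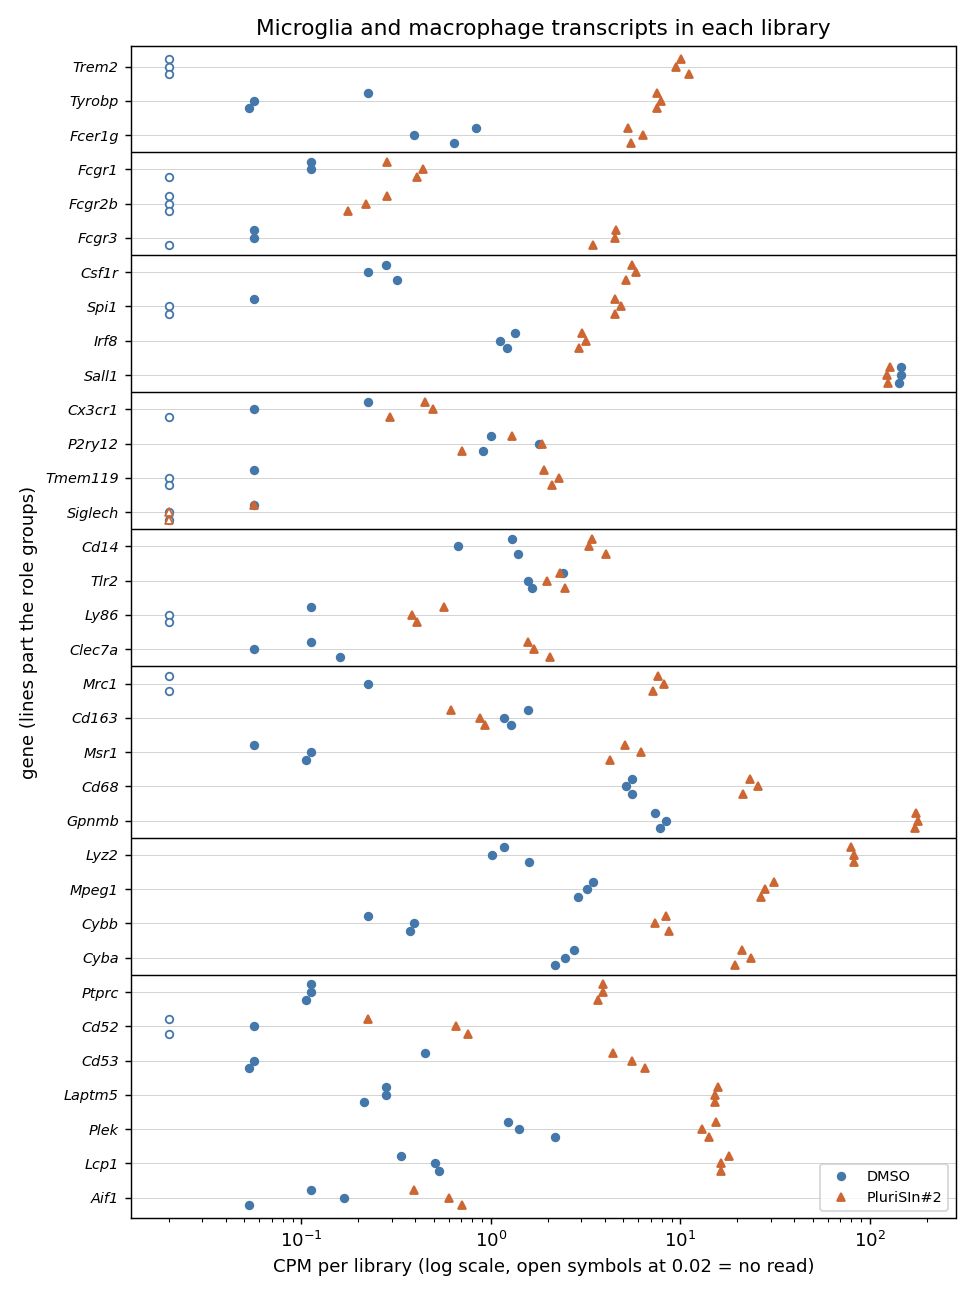
Each row is 1 of the 34 genes, grouped by role, and each symbol is 1 library (circles DMSO, triangles PluriSIn#2), with CPM on a log axis and open symbols at the left for no read. Sall1, at the right, and P2ry12 and Tlr2, in the middle, are the rows with reads in every library where treated values do not lie above DMSO, together with Cd163, whose treated values lie below.

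Trem2 and its adaptor were almost absent from DMSO. Trem2, the lipid-sensing receptor of microglia and macrophages (chromosome 17, 48346401 to 48354147), had no read in any DMSO library and 180, 174 and 189 reads in PluriSIn#2 replicates 1, 2 and 3. The treated libraries lay close together, at 10.2, 9.54 and 11.1 CPM. With 3 counts set as the floor for the summed DMSO reads, Trem2 was at least 186-fold higher.

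Tyrobp, which encodes the adaptor TYROBP, also called DAP12 (chromosome 7, 30413760 to 30417585), had 4, 1 and 1 reads in DMSO and 133, 145 and 129 in PluriSIn#2. Its log2 fold change was 6.03 (SE 0.31), and from the summed reads the ratio was 69.5 with a 95% counting interval of 31.7 to 191. Fcer1g, the gamma chain that serves Fc receptors with the same kind of motif, differed in that DMSO cells already held some of it, with 15, 7 and 12 reads against 94, 116 and 94 (log2 fold change 3.18, SE 0.24). Neither adaptor had a DMSO library within the treated range.

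Fc gamma receptors, which bind antibody-coated targets, were unequal. Fcgr3, an activating receptor, had 1, 1 and 0 DMSO reads and 81, 83 and 59 treated reads, a ratio of 114 with a counting interval of 31.3 to 950. Fcgr2b, the inhibitory receptor, had no DMSO read and only 5, 4 and 3 treated reads, which made it at least 4.10-fold higher. Fcgr1, the high-affinity receptor, had 2, 2 and 0 reads against 5, 8 and 7, a ratio of 5.13 with an interval of 1.72 to 20.6. The last 2 did not pass the filter, and since Fc receptor genes resemble each other, their reads may be shared out unevenly.

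The receptor and the transcription factors that set macrophage identity ranged from lower to far higher. Spi1, the gene of PU.1 (chromosome 2, 91082390 to 91115756), had 1, 0 and 0 DMSO reads and 80, 89 and 77 treated reads, a ratio of 252 with a counting interval of 44.9 to 10000. Csf1r, the receptor for the growth factors CSF1 and IL-34, had 5, 4 and 6 reads against 99, 106 and 88 (4.29, SE 0.28). In both genes the treated libraries lay close together and far from DMSO.

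Irf8, a partner of PU.1 in myeloid cells, was present in DMSO at 1.34, 1.12 and 1.23 CPM and stood at 3.04, 3.18 and 2.93 CPM in PluriSIn#2 (log2 fold change 1.30, SE 0.24). Sall1 went the other way. This zinc finger gene, which neural progenitors express as well as microglia, stood at 146, 146 and 143 CPM in DMSO and at 128, 123 and 125 CPM in PluriSIn#2, a log2 fold change of -0.21 (SE 0.033) that rests on 7893 and 6651 reads. All 3 treated values lay below all 3 DMSO values.

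The 4 markers of resting microglia differed from each other, with 1 called higher (beside 41.7% of all genes tested), 1 not called and 2 below the filter. Tmem119 had 1, 0 and 0 DMSO reads and 34, 42 and 36 treated reads, a ratio of 115 with a counting interval of 20.2 to 4576. Cx3cr1, the fractalkine receptor, had 4, 1 and 0 reads against 8, 9 and 5, a ratio of 4.51 with a counting interval of 1.67 to 15.2. Siglech had 1 read in each group, too few for a fold.

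P2ry12, the ADP receptor that guides microglial processes, overlapped between groups, at 1.01, 1.80 and 0.91 CPM in DMSO and 1.30, 1.86 and 0.70 CPM in PluriSIn#2. Its log2 fold change of 0.07 (SE 0.31) turned negative when any of 3 libraries was left out, to -0.05 (DMSO replicate 1), -0.12 (DMSO replicate 3) or -0.29 (PluriSIn#2 replicate 2), and was 0.43 without DMSO replicate 2. The gene shares exonic sequence with Med12l on the other strand, and no strand setting of the counting is given, so its reads may be mixed. The same holds for Csf1r, Cx3cr1, Fcgr2b, Lcp1, Plek and Cd52, which also overlap exons of a gene on the other strand.

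Of the 4 receptors for microbial patterns and their partners, 2 were called higher, as were 41.7% of all genes tested, and 1 was not called. Clec7a, the beta-glucan receptor dectin-1, had 2, 1 and 3 DMSO reads and 28, 31 and 35 treated reads (log2 fold change 3.92, SE 0.47). Cd14, the co-receptor for lipopolysaccharide, stood at 1.29, 0.68 and 1.39 CPM in DMSO and at 3.44, 3.29 and 4.04 CPM in PluriSIn#2 (1.67, SE 0.24). Tlr2, the receptor for bacterial lipoproteins, overlapped between groups, at 2.41, 1.57 and 1.65 CPM against 2.31, 1.97 and 2.46 CPM, and was not called (0.26, SE 0.23). Ly86, which encodes the partner of the Toll-like receptor CD180, had 2, 0 and 0 reads against 10, 7 and 7, a ratio of 12.3 with a counting interval of 3.06 to 107, and did not pass the filter.

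Scavenger and endocytic receptors and lysosomal glycoproteins held the most treated reads of the 8 role groups, and the other lower member. Mrc1, the mannose receptor CD206, had 0, 4 and 0 DMSO reads and 136, 149 and 123 treated reads (log2 fold change 6.58, SE 0.34). Msr1, the class A scavenger receptor, had 1, 2 and 2 reads against 91, 113 and 73 (5.72, SE 0.36). The treated libraries of both were apart from DMSO by a wide margin.

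Gpnmb, a glycoprotein of lysosomes and melanosomes that other cells also make, stood at 7.34, 8.38 and 7.78 CPM in DMSO and at 175, 180 and 173 CPM in PluriSIn#2, a log2 fold change of 4.49 (SE 0.055). Cd68, a lysosomal membrane protein, stood at 5.54, 5.18 and 5.54 CPM and at 23.4, 25.9 and 21.6 CPM (2.12, SE 0.10). Both had over 90 reads in every DMSO library, and the SE of their fold changes was smaller than for any gene with at most 30 DMSO reads.

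Cd163, the receptor for haemoglobin bound to haptoglobin, was lower, with 28, 21 and 24 reads in DMSO and 11, 16 and 16 in PluriSIn#2 (log2 fold change -0.72, SE 0.32). The groups did not overlap. Its call was lost under 6 of 13 alternatives, which were DESeq2, scaling by library totals, treated replicate 1 alone, and leaving out DMSO replicate 1 or PluriSIn#2 replicate 1 or 2.

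All 4 antimicrobial effector genes were called higher, as were 41.7% of all genes tested. Lyz2, the lysozyme of myeloid cells (chromosome 10, 117277331 to 117282321), stood at 1.18, 1.01 and 1.60 CPM in DMSO and at 79.7, 83.0 and 82.5 CPM in PluriSIn#2 (log2 fold change 6.00, SE 0.097). Mpeg1, which encodes the pore-forming perforin-2, stood at 3.47, 3.21 and 2.88 CPM and at 31.3, 28.0 and 26.8 CPM (3.17, SE 0.11). In both, the treated libraries differed from each other by far less than from DMSO. Lyz2 has a close copy, Lyz1, with which its reads may be shared out unevenly.

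Cybb and Cyba encode the 2 membrane subunits of the phagocyte NADPH oxidase. Cybb, the catalytic subunit, had 4, 7 and 7 reads in DMSO and 149, 135 and 149 in PluriSIn#2 (log2 fold change 4.60, SE 0.24). Cyba, which many cell types express because other oxidases use it too, had 49, 44 and 41 reads against 376, 432 and 331 (3.12, SE 0.12). In the deposited FPKM (fragments per kilobase of transcript, relative to library size), which allow for gene length, DMSO cells held 3.11 FPKM of Cyba and 0.0666 FPKM of Cybb.

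Of the 7 genes of the leukocyte membrane and cytoskeleton, 5 were called higher, as were 41.7% of all genes tested, and Aif1 and Cd52 did not pass the filter. Laptm5, a lysosomal protein of blood cells, had 5, 5 and 4 DMSO reads and 281, 277 and 262 treated reads (log2 fold change 5.87, SE 0.21). Lcp1, the actin bundler L-plastin, had 6, 9 and 10 reads against 319, 300 and 280 (5.18, SE 0.18). Ptprc, the pan-leukocyte phosphatase CD45, had 2, 2 and 2 reads against 69, 71 and 63 (5.03, SE 0.38). In each, no DMSO library came near the treated range.

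Cd53, a tetraspanin of leukocytes, had 8, 1 and 1 DMSO reads and 78, 102 and 112 treated reads (log2 fold change 4.85, SE 0.33). Plek, the protein kinase C substrate pleckstrin, had 22, 25 and 41 reads against 275, 239 and 242 (3.13, SE 0.15). DMSO replicate 1 held 8 of the 10 DMSO reads of Cd53.

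Aif1 and Cd52 were low in both groups. Aif1, the gene of the common microglial stain IBA1, had 2, 3 and 1 reads in DMSO and 7, 11 and 12 in PluriSIn#2, a ratio of 5.13 with a counting interval of 2.10 to 15.1. Cd52, a small leukocyte surface protein, had 0, 1 and 0 reads against 4, 12 and 13, a ratio of 29.7 with an interval of 4.93 to 1214.

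**Figure D2:**
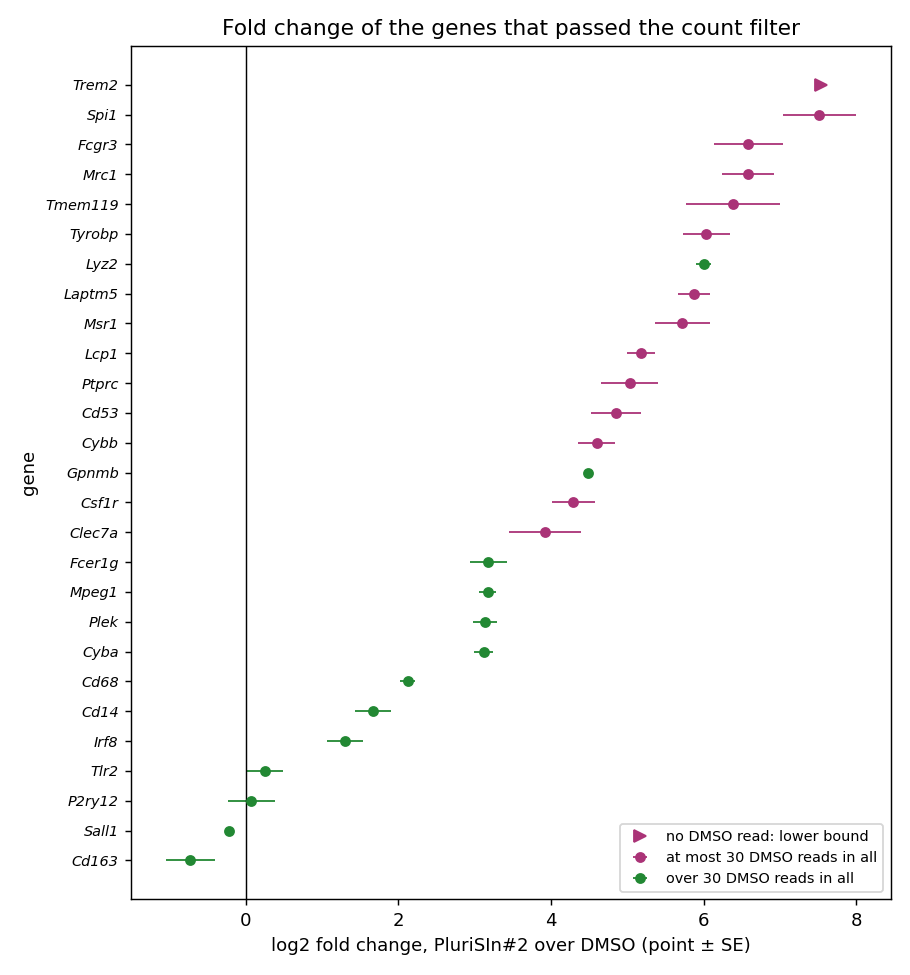
Log2 fold change of PluriSIn#2 over DMSO (horizontal axis, point ± SE worked back from the edgeR F statistic) for the 27 genes that passed the filter, coloured by their DMSO reads. The arrowhead for Trem2 is the bound against a floor of 3 counts. The genes with at most 30 DMSO reads lie at 3.92 and above, and Tlr2, P2ry12, Sall1 and Cd163 lie near or below 0.

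The treated libraries resembled each other across the whole list. Summed without Sall1, the genes gave 32.8, 30.9 and 31.2 CPM in DMSO and 464, 474 and 455 CPM in PluriSIn#2 replicates 1, 2 and 3, which is 14.7-fold between the means. Without Lyz2 and Gpnmb as well, which have the most treated reads of the rest, the sums were 24.3, 21.5 and 21.9 CPM and 209, 211 and 199 CPM, or 9.15-fold. The 21 genes with at most 30 DMSO reads summed to 132 reads in DMSO and 5388 in PluriSIn#2. Over the 28 genes with at least 30 treated reads, the coefficient of variation among treated libraries had a median of 8.45% and ran from 2.08% for Sall1 to 45.1% for P2ry12. Treated replicate 2 was the highest for 14 of these genes, replicate 3 for 8 and replicate 1 for 6.

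Levels of different genes can be compared only per gene length, for which the deposited FPKM were used. In PluriSIn#2 Lyz2 came first at 77.6 ± 1.60 FPKM (mean ± SD, n = 3), followed by Gpnmb at 46.5 ± 0.938, Cyba at 28.3 ± 2.84, Sall1 at 23.9 ± 0.523, Cd68 at 19.0 ± 1.74 and Tyrobp at 13.6 ± 0.422. None of these 6 neighbours overlapped in the 3 treated libraries. Trem2 at 8.98 ± 0.677 FPKM and Fcer1g at 8.73 ± 0.848 did overlap, as did Mpeg1 at 6.64 ± 0.549 and Laptm5 at 6.47 ± 0.151.

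Lower in the same order, Spi1 stood at 3.49 ± 0.157 FPKM, between Plek and Fcgr3, and Mrc1, Msr1 and Csf1r lay together at 1.43 to 1.45 FPKM with overlapping libraries. Markers of resting microglia were in the lower part of the order, with Tmem119 at 1.02 ± 0.0920, P2ry12 at 0.553 ± 0.249 and Cx3cr1 at 0.110 ± 0.0283 FPKM. Siglech came last. In DMSO only Sall1, at 26.4 ± 0.362 FPKM, exceeded 5 FPKM, and Cd68 (4.16 ± 0.159) and Cyba (3.11 ± 0.355) were next.

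**Figure D3:**
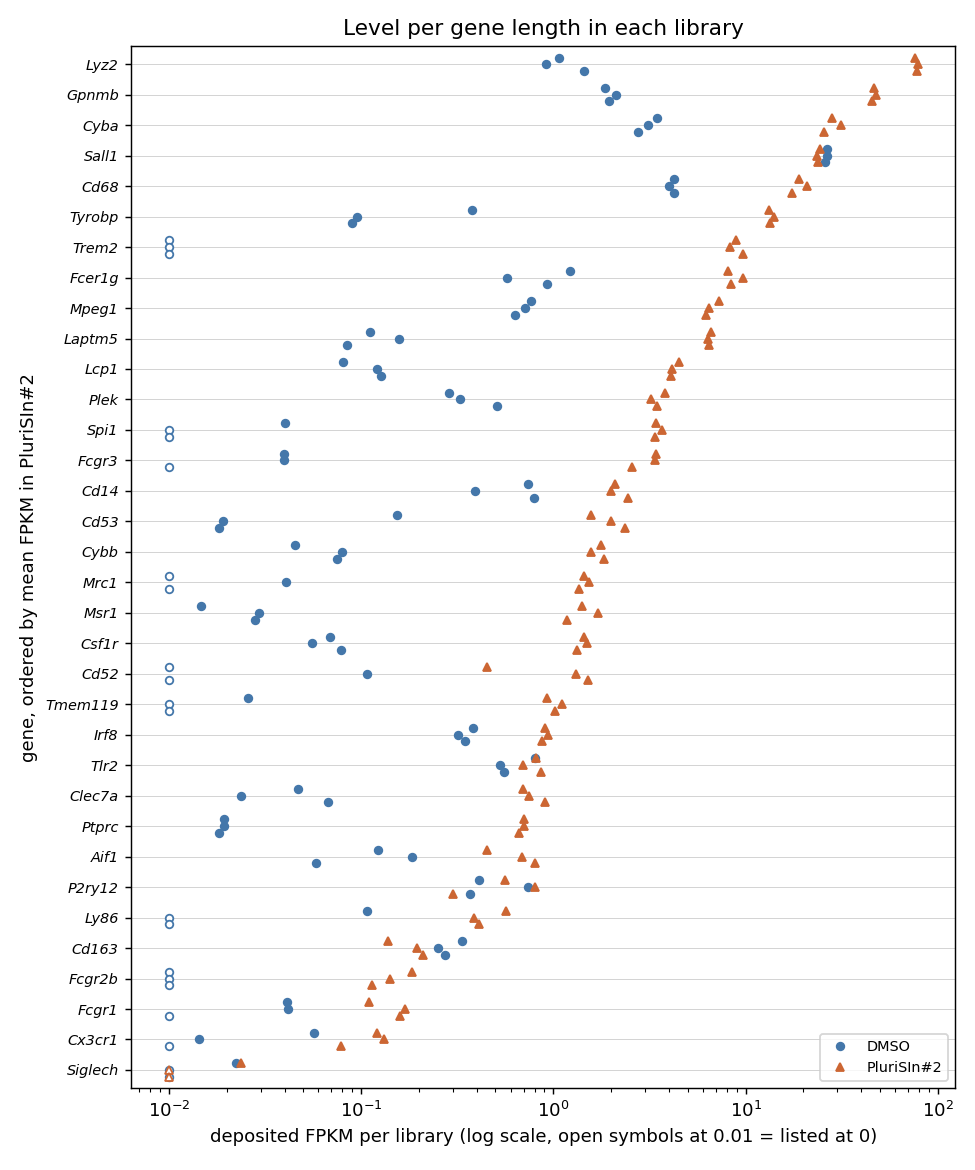
Deposited FPKM of the 34 genes on a log axis, ordered by their treated mean, with 1 symbol per library (circles DMSO, triangles PluriSIn#2) and open symbols at 0.01 for values listed at 0. Lyz2 heads the treated order at 77.6 FPKM, and Sall1 is the gene with the highest DMSO level.

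Genes for ligands of CSF1R, CX3CR1 and TREM2 were present in both groups. All 5 on the list were called higher (median log2 fold change 1.47), as were 41.7% of all genes tested. The list was written with earlier results of these data known, so its p-values are a description and not a fresh test. Csf1, a ligand of CSF1R, rose from 43.8, 42.5 and 40.6 CPM in DMSO to 97.6, 97.9 and 95.6 CPM in PluriSIn#2 (log2 fold change 1.20, SE 0.045, edgeR adjusted p = 9.88e-42). Il34, its other ligand, rose from 2.91, 3.43 and 2.99 CPM to 8.46, 8.44 and 8.90 CPM (1.47, SE 0.14, edgeR adjusted p = 8.37e-16). Cx3cl1, the fractalkine that binds CX3CR1, rose from 111, 108 and 113 CPM to 138, 147 and 146 CPM (0.37, SE 0.035, edgeR adjusted p = 7.59e-17). The apolipoprotein genes Apoe and Clu, whose products bind TREM2, rose from 268, 258 and 254 CPM to 5327, 5575 and 5545 CPM and from 37.8, 36.2 and 38.4 CPM to 212, 220 and 219 CPM. Per length, the ligand genes stood in DMSO at 1.60 FPKM (Il34), 9.70 (Csf1) and 33.9 (Cx3cl1), and the receptors at 0.0679 FPKM (Csf1r), 0.0238 (Cx3cr1) and listed at 0 (Trem2).

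**Figure D4:**
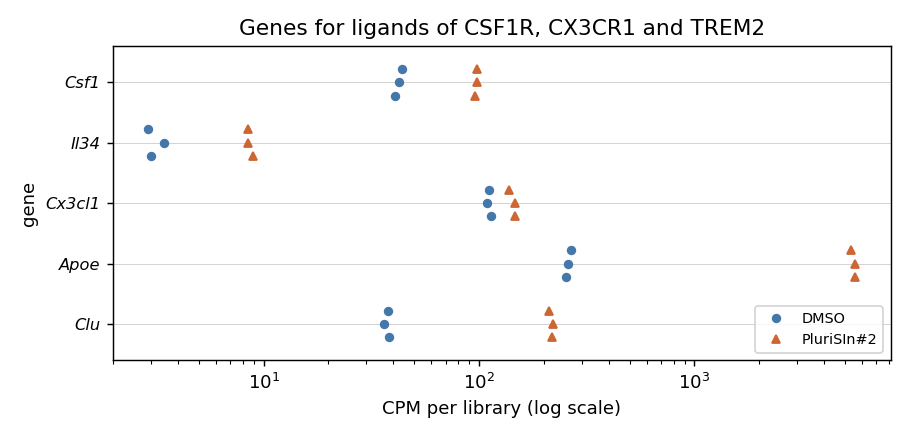
CPM on a log axis of the 5 genes for ligands of CSF1R (Csf1, Il34), CX3CR1 (Cx3cl1) and TREM2 (Apoe, Clu), with 1 symbol per library. The treated libraries lie above the DMSO libraries for each gene, from means of 143 against 111 CPM for Cx3cl1 to 5482 against 260 CPM for Apoe.

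Other genes of these pathways were taken from lists written with earlier results of these data known. Values in parentheses after a gene are its log2 fold change, and calls are those of edgeR at the threshold given above, which 41.7% of all tested genes passed as higher and 40.9% as lower. Of 51 further microglia and macrophage genes 33 passed the filter, with 30 called higher, 2 lower and 1 in neither direction, and a median log2 fold change of 5.17 (5.09 with Ms4a6c, which had no DMSO read, at its bound). Those with the highest CPM included the cathepsins Ctss (6.02) and Ctsc (-2.02), of which Ctsc was lower. Olfml3 was the other lower gene (-1.15) and Coro1a the 1 not called (0.20). These 2, Ms4a6c and the next 3 are named after their values were seen. Adgre1, the gene of the macrophage marker F4/80, had 10 DMSO reads and 881 treated reads, Lilrb4a 2 and 507, and C3ar1 13 and 802.

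Of 17 genes that carry or feed ITAM signals, 14 passed the filter and 10 were called higher, 1 lower and 3 in neither direction (median 3.86). The 3 with the highest CPM were not among those that rose. The kinase gene Lyn stood at 75.0 and 75.8 CPM in DMSO and PluriSIn#2 and Lat2 at 6.98 and 6.83 CPM, and neither was called. Syk, the kinase that docks on phosphorylated ITAMs, was the 1 gene that fell, from 28.4 CPM in DMSO to 9.67 CPM (-1.55, SE 0.085). Named after their values were seen are Card9, not called (0.06), and Vav1, Inpp5d and Pik3ap1, called higher, which had 2, 7 and 4 DMSO reads and 184, 222 and 236 treated reads.

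Of the 12 NADPH oxidase genes 7 passed and 6 were called higher (median 3.30), including Rac2 (4.97) and Noxo1 (0.94), while Rac1, the ubiquitous paralogue of Rac2, was not called (520 and 523 CPM). Scaling by library totals alone called Rac1 higher, by 0.08. The cytosolic phagocyte subunits Ncf1 (3.35) and Ncf4 (0 DMSO and 49 treated reads), named after their values were seen, were higher too. Of 19 Toll-like receptor genes and partners 12 passed, with 10 higher and 1 lower (median 1.03), among them Tlr3 (1.19), Ticam1 (0.35) and the lower Tirap (-0.45). Ly96, named after its values were seen, was not called (0.31).

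Of 15 further myeloid transcription factors 11 passed, with 8 higher, 2 lower and 1 not called (median 1.12). The highest by mean CPM over the 6 libraries were Mef2c, which fell (-0.61), and Maf (1.40) and Cebpb (0.87), which rose. Batf3 (-2.79, lower) and Cebpa (0.13, not called) are named after their values were seen. Of 6 colony-stimulating factor genes and their receptors 3 passed and were higher, namely Csf2ra (1.73) and the near-identical Csf2rb (3 DMSO and 57 treated reads) and Csf2rb2 (3 and 102), whose reads may be shared out unevenly. The ligand gene Csf2 had no read in any library.

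Marker lists of other cell types were read in the same libraries. The 13 lymphocyte markers summed to between 1.90 and 2.29 CPM in DMSO and between 1.58 and 2.03 CPM in PluriSIn#2. Of these markers 2 passed the filter: Cd79a was lower (-1.23) and Lck was not called. Cd3d, Cd3e and Cd3g, of the T cell receptor complex, and the B cell gene Ms4a1 had no read in any library, while Cd4, which some macrophages also express, had 1 DMSO read and 25 treated reads. Of 13 granulocyte and mast cell markers none passed the filter, their sums ran from 0.32 to 0.96 CPM in DMSO and from 0.79 to 1.46 CPM in PluriSIn#2, and the highest by mean CPM, Mpo, Camp and Prtn3, had 5, 20 and 3 DMSO reads and 25, 12 and 9 treated reads. S100a9, a gene that neutrophils make in large amounts, had no read.

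Among 7 dendritic cell markers 2 passed, Itgae (-3.26, called lower) and Zbtb46 (not called), and Flt3 had 7 DMSO and 16 treated reads. The sums ran from 7.31 to 7.67 CPM in DMSO and from 4.74 to 5.21 CPM in PluriSIn#2. Itgae carried that fall, at means of 3.12 and 0.322 CPM, beside 4.25 and 3.83 CPM for Zbtb46. Clec9a and Xcr1, named after their values were seen, had no DMSO read and 14 and 10 treated reads. Of 8 erythroid and platelet markers the 3 haemoglobin genes had no read, Itga2b rose (1.10), and Alas2 had 27 DMSO and 23 treated reads. Sums were 4.05 to 4.75 CPM and 7.67 to 9.10 CPM.

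Fibroblast and vascular markers, by contrast, moved with the macrophage genes. Of 10 fibroblast and mural cell markers 8 passed and 7 were called higher (median 5.20), with Col1a1 (4.51), Col1a2 (5.89) and Col3a1 (6.60) the highest by mean CPM over the 6 libraries, and all 10 had reads in both groups. That order is set by the treated libraries, since in DMSO these 3 stood at 0.397, 0.140 and 0.108 FPKM, below Acta2 at 5.38 and Rgs5 at 2.38 FPKM. Acta2 was the 1 not called (-0.10), and it and Rgs5 are named after their values were seen. Their sum was 23.8 to 24.6 CPM in DMSO and 220 to 225 CPM in PluriSIn#2. Of 10 endothelial markers 8 passed and 7 were called higher (median 2.33), among them Cdh5 (6.93), Esam (2.84) and Flt1 (0.47), and the sum was 6.29 to 6.98 CPM and 34.6 to 38.4 CPM. Tek, named after its values were seen, was not called (-0.32). The Flt1 call was lost with DESeq2, without DMSO replicate 3, without PluriSIn#2 replicate 3 and with treated replicate 1 alone. What these cell types contribute to the macrophage values was not tested. The 11 neural stem cell markers summed to 8449 to 8557 CPM in DMSO and 7730 to 7765 CPM in PluriSIn#2, with 4 higher and 7 lower.

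**Figure D5:**
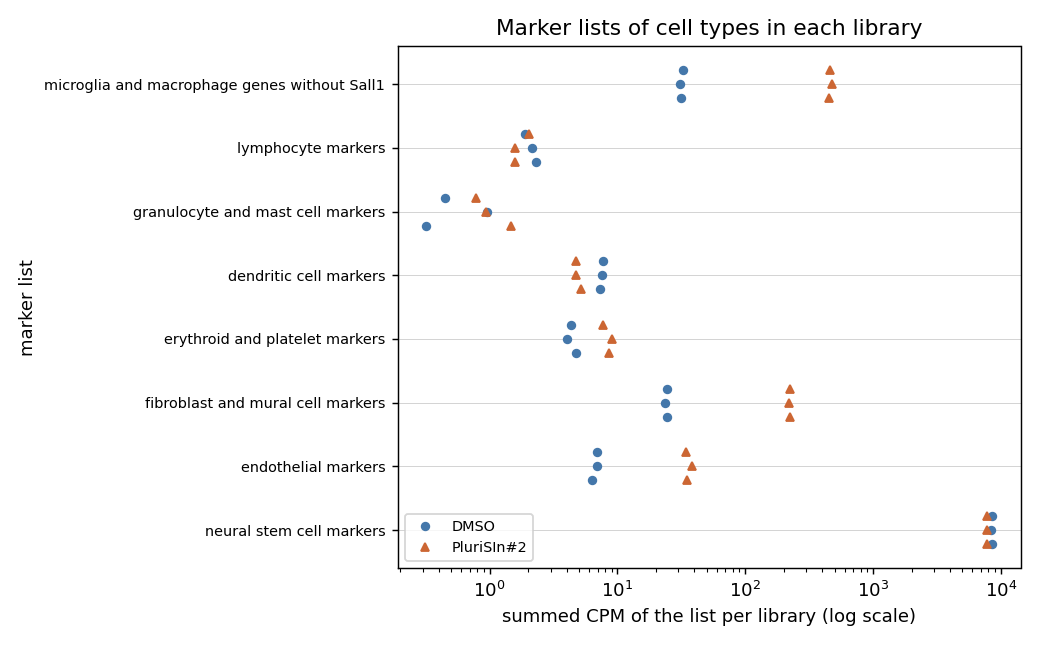
Summed CPM of each marker list in each library on a log axis (circles DMSO, triangles PluriSIn#2). Microglia and macrophage genes without Sall1 (means of 31.6 and 464 CPM), fibroblast and mural, endothelial, and erythroid and platelet markers summed higher in the 3 treated libraries, lymphocyte and granulocyte sums overlapped between groups, and dendritic and neural stem cell sums were lower. Itgae carried the lower dendritic sum.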

How the data were processed

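Counts of 6 libraries were used as deposited by the authors: whole-number reads per gene symbol, not normalized. The deposited FPKM table gives values the authors normalized for length and depth. Its log2 fold changes and p-values, from the authors' own test, were not used, nor were rows with a duplicated or date-like gene name. Alignment and counting software is listed in the submitters' processing notes as STAR and HTSeq, with DESeq and the build mm10. Their versions, annotation and strand setting: not given in the sources used here.

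Genes passing filterByExpr were fitted in edgeR 4.0.16 (R 4.3.3) with TMM scaling and glmQLFTest, group as the only term, two-sided, adjusted by Benjamini-Hochberg over 14417 genes. CPM use totals times TMM factors. The SE of a log2 fold change is its absolute value divided by the square root of the F statistic of that test. Ratios of summed reads carry exact binomial 95% intervals; these and the floor of 3 counts cover counting error only. The script was tested on simulated data. Positions are from GENCODE M21 on GRCm38 and promoter sequences from RefSeq on GRCm38.p6. The members and lists were chosen with earlier results of these data known. Named were all 34 members, the 3 genes of each related list with the highest mean CPM over all libraries, and all ligand genes; other genes are said to be named after their values were seen. Some genes that this rule names are not reported here. The granulocyte gene Ly6g was not analysed here. Alternatives were DESeq2 1.42.0, 2 other scalings, 2 other filters, the replicate block, leaving out each library, treated replicate 1 alone (spread from DMSO only) and FPKM.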

Additional observations from a re-analysis of the deposited data

How the results depend on the processing

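Of the 27 members that passed the filter, 342 of their comparisons with an alternative fit kept direction and call, 6 lost the call (all Cd163) and 3 changed sign (all P2ry12: -0.05 without DMSO replicate 1, -0.12 without DMSO replicate 3, -0.29 without PluriSIn#2 replicate 2, and 0.43 without DMSO replicate 2). Between 24 and 31 members were called, beside 25 in the analysis above. Other named genes that changed sign were never called there: Lyn (-0.0112 to 0.0298 with 1 library left out), Lat2 (-0.0827 to 0.0064 likewise, 0.0358 with library totals, 0.0005 with treated replicate 1 alone), Rac1 (-0.0108 to 0.0174 likewise, -0.0141 with treated replicate 1 alone) and Lck (0.0722 with treated replicate 1 alone). The members' median log2 fold change was 4.10 without a filter on low counts, 4.29 to 4.50 with 1 library left out, and 3.19 and 1.48 from FPKM with pseudocounts of 0.1 and 1, which shrink low genes. With library totals, the members summed to 173 CPM (DMSO) and 604 CPM (PluriSIn#2), beside 177 and 589 above. Sums without Sall1 (31.6 and 464 CPM), and without Sall1, Lyz2 and Gpnmb (22.5 and 206 CPM), were chosen after seeing the data. Same-numbered replicates did not deviate together (r of -0.0121, -0.022 and 0.00601 over 11413 genes), so numbers were not taken as pairs. With a replicate block 25 members and 11851 genes were called, beside 25 and 11915 without it. Members with under about 30 reads are measured in coarse steps.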
